A study of Mus musculus with 2 samples.

Results

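The insulin-like growth factor (IGF) system of the embryonic pancreas is described here through 10 of the 32285 features counted in the series: the ligands Igf1 and Igf2, the receptors Igf1r and Igf2r, the binding proteins Igfbp2, Igfbp3, Igfbp4 and Igfbp5, and the related secreted proteins Igfbp7 and Igfbpl1. They were taken by symbol, whatever their values, and their unique molecular identifiers (UMIs, each standing for 1 captured RNA molecule) were summed over cell classes. The study profiled single live cells of mouse pancreas at embryonic day 14.5 on a C57BL/6J background by droplet RNA sequencing. Control is a pool of 8 pancreata (genotypes Fgf9 +/+ and +/-, 3 litters). Null is a pool of 3 pancreata of genotype Fgf9 -/-, also from 3 litters, in which a LacZ insertion inactivates the gene in all cells. The question set by the design is how the loss of Fgf9, a growth factor made by the mesothelium of the early gut organs, changes the pancreas. Each group is 1 library, so nothing here measures the spread between embryos, and the intervals given are those of the counts alone.

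IGF1 and IGF2 are secreted growth factors that signal through the IGF1 receptor, a tyrosine kinase coupled to the PI3K and AKT pathway. The IGF2 receptor binds IGF2 at the cell surface, carries it to lysosomes and does not signal as a kinase. The binding proteins hold the ligands outside cells and are opened by proteases such as PAPPA. In many fetal organs the ligands come largely from mesenchyme while the epithelium bears the receptor, and Igf2 and Igf2r are imprinted genes expressed from opposite parental copies.

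Cells were placed in classes by fixed marker lists, with the 10 genes and the rest of the pathway left out of the clustering. In Control, 12821 of 26959 kept barcodes entered a named class, and in Null 6993 of 8884 did. Median depth in the named cells was 16447 UMIs in Control and 27309 in Null. Of the markers listed for the mesenchymal class, 8 of 9 were higher in it than in the remaining cells in Control and 9 of 9 in Null. All 10 were for the mesothelial, endothelial, leukocyte and acinar classes. For ductal or bipotent progenitor cells 9 of 10 were in each library, and for endocrine progenitor cells all 7 that were matched of 8 listed. The same lists named the clusters, so these counts do not test the names. Fgf9 itself was at 9.25 CPM (the gene's UMIs scaled to a total of 1000000, with a 95% Poisson interval of 8.92 to 9.59) over the kept Control barcodes and at 1.70 CPM (1.54 to 1.88) over the kept Null ones. Xist, which is transcribed from the inactive X chromosome of females, was at 384 CPM in Control and 0.290 CPM in Null, so the sex of the pooled embryos and the genotype cannot be told apart. The estimated share of carried-over RNA, called free RNA below, also differed. It was estimated from acinar enzymes in non-epithelial classes and from matrix genes in epithelial ones. Whether such RNA came from burst cells or from mixed barcodes was not tested. The share of UMIs was 22.7% in Control and 5.82% in Null for mesenchymal cells, 32.5% and 8.18% for leukocytes, and 33.4% and 9.24% for endocrine cells. Of the cell barcodes, 180 occurred in both libraries, of 30209 in Control and 16708 in Null.

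The members lie on 7 chromosomes, and only Igfbp2 and Igfbp5 are neighbours. On chromosome 1 of GRCm38, Igfbp2 spans positions 72824503 to 72852474 on the plus strand and Igfbp5 spans 72857932 to 72874884 on the minus strand, tail to tail with 5457 bases between their ends. These 2 promoters are shown because both genes had their highest level in the same cell class, the mesothelium, in each library. The sequences are the 250 bases before the start in RefSeq (GRCm38.p6), read on the strand of the gene, with motif matches in capitals. The motifs searched on both strands were the GC box GGGCGG, the TATA box TATAAA and the TATA-like run TATTTAA, which do not overlap each other in these windows.
Igfbp2, chr1:72824230-72824479, plus strand: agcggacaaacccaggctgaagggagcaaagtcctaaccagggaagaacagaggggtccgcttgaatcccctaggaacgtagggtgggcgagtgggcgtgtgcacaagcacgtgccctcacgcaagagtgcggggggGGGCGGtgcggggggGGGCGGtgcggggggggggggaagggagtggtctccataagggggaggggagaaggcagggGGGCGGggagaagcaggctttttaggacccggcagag
Igfbp5, chr1:72874866-72875115, minus strand: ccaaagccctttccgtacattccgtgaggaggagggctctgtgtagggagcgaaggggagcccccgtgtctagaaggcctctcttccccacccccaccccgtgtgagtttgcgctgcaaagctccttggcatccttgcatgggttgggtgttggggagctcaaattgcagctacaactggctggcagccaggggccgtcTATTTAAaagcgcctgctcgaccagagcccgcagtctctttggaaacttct
The printed Igfbp2 window is that of the upstream of 2 RefSeq starts. It held 3 GC boxes and no TATA match, with a GC content of 67.2%, while the window of the other start, chr1:72825137-72825386, held neither and had a GC content of 56.4%. The Igfbp5 window held no GC box and 1 TATA-like run, with a GC content of 58.8%. Over all 32851 RefSeq promoter entries, the GC box occurred in 32.7%, TATAAA in 12.4% and TATTTAA in 4.18% of such windows, and the median GC content was 52.4%. RefSeq promoters were matched for 9 of the 10 members, with 4 separate starts for Igf2 and 2 for Igfbp2, among which the counts per gene do not distinguish.

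Both ligands were highest in mesenchymal or mesothelial cells. Classes were ordered by level over the 9 with at least 50 cells in each library, which leaves out mural cells, the contractile cells around vessels (112 in Control and 41 in Null), whose levels are given where they would change an order. Igf2, the main fetal growth factor of the pair, was at 742 CPM in Control and 1228 CPM in Null mesenchymal cells, which line and fill the pancreas between the epithelial branches. In mesothelial cells, the outer covering of the organ, it was at 443 CPM in Control and 1014 CPM in Null, in endothelial cells at 464 and 971 CPM, and in the few mural cells at 601 and 1215 CPM. In the epithelium Igf2 was at 114 CPM in Control and 226 CPM in Null acinar cells, the enzyme-producing cells, and at 101 and 123 CPM in ductal or bipotent progenitor cells. Endocrine cells were lowest in Control at 73.6 CPM, with an interval that overlapped that of neural cells, and leukocytes were lowest in Null at 26.2 CPM. Mesenchymal cells therefore stood 10.1-fold over endocrine cells in Control and 46.9-fold over leukocytes in Null, folds that rest on unlike bases. Free RNA was 33.4% of UMIs in those Control endocrine cells, estimated from matrix genes. It was 8.18% in those Null leukocytes, estimated from acinar enzymes, so these shares are unlike measures.

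Comparing the libraries, Igf2 was higher in Null by 0.73 on the log2 scale in mesenchymal cells (95% interval 0.70 to 0.76), by 1.19 in mesothelial cells (1.14 to 1.25) and by 0.98 in acinar cells (0.95 to 1.02). These 3 differences were called: a gene needed 20 or more UMIs in the class over both libraries, a ratio of 1.5-fold or more, and an interval that leaves out 0. In ductal or bipotent progenitor cells the difference was 0.29 (0.24 to 0.34), under the fold set for a call. Endocrine cells went the other way, from 73.6 CPM in Control to 37.3 CPM in Null, and so did leukocytes, from 85.2 to 26.2 CPM. Of the compared classes, both of those had the largest estimated shares of free RNA in Control. The endocrine share was estimated from matrix genes and the leukocyte share from acinar enzymes, so the shares are unlike measures. Subtracting free RNA moved the log2 ratios of Igf2 in these classes in opposite directions. The endocrine ratio went from -0.98 to 0.04, and was 0.12 with subclusters weighted alike, while the leukocyte ratio went from -1.70 to -3.45. In the mesothelial class the summed level of the mesenchymal marker list also differed, 2919 CPM in Control and 6974 CPM in Null, with 8 of its 9 genes higher in Null, and its part in the mesothelial Igf2 difference was not tested. A pooled class sum cannot tell fewer strongly expressing cells from less RNA in each cell. Detection, the share of cells with a UMI, was also read after every cell was thinned to 2000 UMIs. At that depth the share depends both on the RNA in each cell and on how many cells express the gene. Alone it therefore cannot tell them apart either. After thinning, Igf2 was detected in 71.5% of mesenchymal cells in Control and 85.5% in Null (unthinned 98.4% and 99.4%). In mesothelial cells the thinned shares were 55.6% and 81.6% (unthinned 95.6% and 99.3%). In leukocytes, given for comparison, the thinned share was 13.3% in Control and 8.02% in Null (unthinned 43.3% and 29.5%, at median depths of 11996 and 17568 UMIs). Free RNA was 32.5% of UMIs in Control leukocytes, against 22.7% in mesenchymal and 19.8% in mesothelial cells, so the leukocyte share is not a measure of the background in those classes. Cells with fewer than 2000 UMIs were left out of thinning: in the compared classes these were at most 38 in Control and 30 in Null, and in endothelial cells 35 and 34.

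Igf1 was led by the same 2 classes, in an order that differed between the libraries. In Control it was at 479 CPM in mesothelial and 295 CPM in mesenchymal cells, and in Null at 533 and 593 CPM, so the first class changed from mesothelial to mesenchymal. The mesenchymal log2 ratio was 1.01 (0.96 to 1.06), the highest of this gene in any compared class, while the mesothelial one was 0.15 (0.09 to 0.22) and not called. Acinar cells came next in both libraries, at 99.7 CPM in Control and 130 CPM in Null, far above the other epithelial classes. Ductal or bipotent progenitor cells were at 20.1 CPM in Control and 10.4 CPM in Null, and endocrine progenitor cells at 15.1 and 4.40 CPM. Those low epithelial levels were called lower in Null, as were endocrine cells at 37.9 and 11.7 CPM and leukocytes at 70.4 and 46.0 CPM. After thinning, Igf1 was detected in 16.3% of acinar cells in Control and 22.3% in Null, against 3.36% and 1.49% of ductal or bipotent progenitor cells (unthinned 87.6% and 96.2%, and 23.3% and 14.9%).

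**Figure D1:**
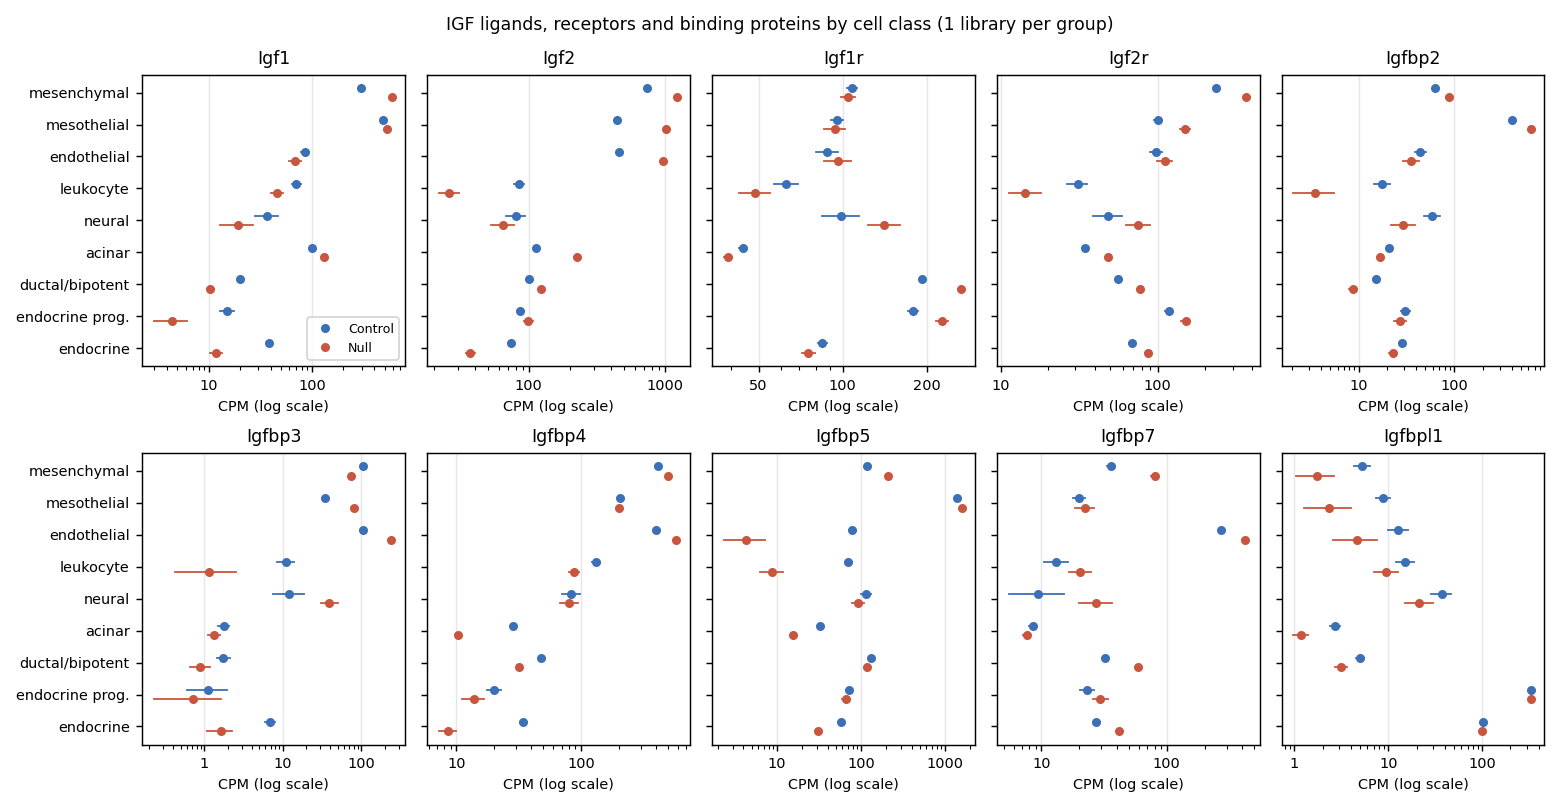
Level of each member in 9 cell classes, in CPM on a log axis, with Control in blue, Null in red and lines for the 95% Poisson interval of the counts. Igf1, Igf2, Igf2r and Igfbp4 sit high in mesenchymal cells, Igfbp2 and Igfbp5 in mesothelial cells, Igfbp7 in endothelial cells, Igf1r in ductal or bipotent progenitor cells and Igfbpl1 in endocrine progenitor cells.

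The signalling receptor was instead highest in the progenitor epithelium. Igf1r was highest in ductal or bipotent progenitor cells, at 192 CPM in Control and 265 CPM in Null, followed by endocrine progenitor cells at 178 and 226 CPM. Mesenchymal cells were at 108 CPM in Control and 105 CPM in Null, and the mesothelial class was at 95.2 and 93.8 CPM. In Control the intervals of mesenchymal, neural, mesothelial and endothelial cells overlapped from each to the next. Acinar cells were lowest in both libraries, at 43.9 and 38.7 CPM, which put ductal or bipotent progenitor cells 4.36-fold above them in Control and 6.83-fold in Null. No difference of Igf1r between the libraries reached 1.5-fold in any of the 7 compared classes, with log2 ratios from -0.37 in leukocytes to 0.47 in ductal or bipotent progenitor cells. Among the subclusters of endocrine cells, Igf1r was at 95.3 CPM in Control and 120 CPM in Null in the one led by Ins1 and Ins2, the insulin genes of beta cells. It was at 40.4 and 35.2 CPM in the one led by Gcg and Gast, of which Gcg encodes glucagon of alpha cells, and at 33.7 and 14.2 CPM in the one led by Irs4 and Ghrl, the ghrelin gene.

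Igf2r, the clearance receptor, had its highest level of the ordered classes in mesenchymal cells, as Igf2 did. Mesenchymal cells were at 236 CPM in Control and 363 CPM in Null, and the log2 ratio of 0.62 (0.56 to 0.68) was called. With free RNA subtracted it was 0.42, below the fold for a call. The few mural cells were at 233 CPM in Control and 412 CPM in Null (369 to 458), the latter above mesenchymal cells. Of the ordered classes, endocrine progenitor cells were second in each library, at 117 and 150 CPM, and their interval in Null overlapped that of mesothelial cells at 149 CPM. Leukocytes were lowest, at 30.9 CPM in Control and 14.3 CPM in Null, and formed the only compared class where Igf2r was lower in Null. That log2 ratio of -1.11 was called, but was -0.06 without the doublets of a second call and -0.16 with subclusters weighted alike. In the other 6 compared classes Igf2r was higher in Null, by 0.34 to 0.62 on the log2 scale.

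Igfbp5 and Igfbp2 marked the mesothelium. Igfbp5, which binds both ligands and extracellular matrix, was at 1373 CPM in Control and 1590 CPM in Null mesothelial cells, and the next of the ordered classes stood 10.6-fold lower in Control and 7.69-fold lower in Null. Mural cells held 169 CPM in Control and 158 CPM in Null. After thinning to 2000 UMIs it was detected in 85.8% of mesothelial cells in Control and 85.2% in Null (unthinned 99.4% and 98.9%). The difference between libraries there was 0.21 (0.18 to 0.25), under the fold set for a call. Igfbp2 was at 400 CPM in Control and 641 CPM in Null mesothelial cells, 6.29-fold and 7.26-fold over the next class, and its log2 ratio of 0.68 (0.62 to 0.74) was called. When the set-aside mesothelial subcluster described below was put back, that ratio was 0.26. The promoters of these neighbouring genes are those printed above.

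Outside the mesothelium Igfbp5 differed in direction from class to class. Mesenchymal cells were at 119 CPM in Control and 207 CPM in Null, acinar cells at 32.8 and 15.4 CPM, and leukocytes at 70.7 and 8.73 CPM. Endothelial cells, with 331 Control and 183 Null cells and so not compared, were at 78.9 CPM in Control (71.5 to 86.9) and 4.28 CPM in Null (2.34 to 7.18). The endothelial share of cells with an Igfbp5 UMI after thinning was 9.12% in Control and 0.671% in Null (unthinned 20.8% and 7.10%). The summed mesenchymal list in endothelial cells was 390 CPM in Control and 44.9 CPM in Null, the mesothelial list was 105 and 25.7 CPM, and the part of such carried-over RNA was not tested. Ductal or bipotent progenitor cells held Igfbp5 at 130 CPM in Control and 118 CPM in Null, the highest level in the epithelium.

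Igfbp4 was highest in endothelial and mesenchymal cells in both libraries, and Igfbp3 was so in Control. Igfbp3, the main carrier of IGFs in adult blood, was at 107 CPM in Control and 239 CPM in Null endothelial cells. In Control the mesenchymal level of 105 CPM overlapped the endothelial one. In Null the mesenchymal level was 75.1 CPM, and mesothelial cells ranked between the endothelial and mesenchymal classes, with an interval that overlapped the mesenchymal one. Mesothelial Igfbp3 was at 35.0 CPM in Control and 80.8 CPM in Null, a called log2 ratio of 1.21 (1.02 to 1.39). Among barcodes of 5000 to 20000 UMIs that ratio was 0.04. Acinar, ductal or bipotent progenitor and endocrine progenitor cells held at most 1.78 CPM in either library. Igfbp4 was at 415 CPM in Control and 496 CPM in Null mesenchymal cells, and at 399 and 573 CPM in endothelial cells. The mesenchymal and mesothelial ratios of Igfbp4, 0.26 and -0.02, were not called. In acinar cells Igfbp4 was at 28.6 CPM in Control and 10.4 CPM in Null and in endocrine cells at 34.5 and 8.53 CPM, both called lower. Among acinar barcodes of 5000 to 20000 UMIs the acinar log2 ratio was 0.00406.

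Igfbp7, a secreted protein of the vessel wall that binds IGFs weakly, was at 273 CPM in Control and 419 CPM in Null endothelial cells, followed by the few mural cells at 89.7 and 187 CPM. Mesenchymal cells were at 36.1 CPM in Control and 80.1 CPM in Null, a called log2 ratio of 1.15 (1.01 to 1.29). In ductal or bipotent progenitor cells it was at 31.9 and 59.3 CPM, with a called ratio of 0.90 (0.82 to 0.97), and thinned detection was 6.28% in Control and 11.8% in Null (unthinned 40.4% and 63.1%). Igfbp7 shares exon sequence with Polr2b on the opposite strand, and Igf2 does with Igf2os. The sources used here do not give whether strand was used in counting, so reads of these pairs may not be told apart.

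Igfbpl1, an IGFBP-related protein, was the one member that marked the endocrine lineage. It was at 333 CPM in Control and 328 CPM in Null endocrine progenitor cells, and at 101 CPM in each library in endocrine cells. The endocrine progenitor level was 3.30-fold over the next class in Control and 3.26-fold in Null. Between libraries the log2 ratios were -0.02 (-0.10 to 0.05) and -0.01 (-0.09 to 0.08) in these 2 classes. Thinned detection in endocrine progenitor cells was 42.1% in Control and 35.5% in Null, and in acinar cells 0.805% and 0.0936% (unthinned 66.1% and 66.7%, and 8.84% and 5.41%). Within the lineage the level was uneven. It was 474 CPM in Control and 493 CPM in Null in the subcluster led by Neurog3, the gene that starts the endocrine program, and 19.8 and 17.9 CPM in the other endocrine progenitor subcluster, led by Grin3a and Rsad2. The subcluster led by Irs4 and Ghrl held 456 and 359 CPM, the one led by Gcg and Gast 139 and 119 CPM, and the one led by Ins1 and Ins2 53.2 and 57.1 CPM. A further subcluster led by Lhx1 and Fev, set aside between progenitor and endocrine names, held 425 and 453 CPM. In all named classes outside the endocrine lineage, the level was at most 37.0 CPM in Control and 21.4 CPM in Null.

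Within the endocrine class, the subcluster led by Sst, the somatostatin gene of delta cells, stood apart for 2 binding proteins, though it held 42 Control and 35 Null cells. Its Igfbp5 level was 331 CPM in Control and 314 CPM in Null, against 21.2 and 10.9 CPM in the Ins1-led subcluster and 24.3 and 20.1 CPM in the Gcg-led one. Its Igfbp7 level was 107 CPM in Control and 159 CPM in Null, against 28.0 and 39.4 CPM in the Ins1-led subcluster.

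**Figure D2:**
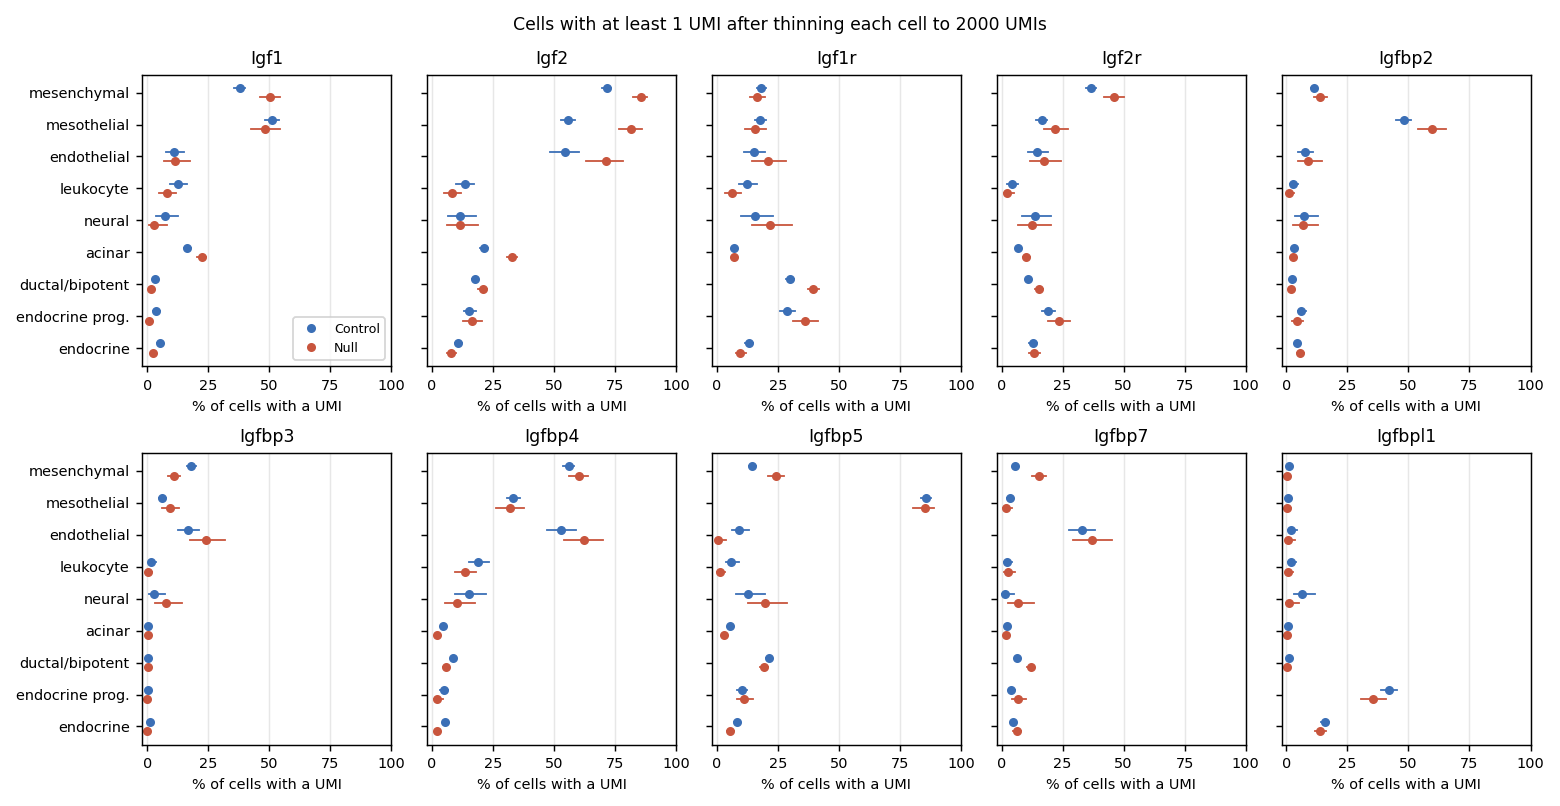
Share of cells with at least 1 UMI of each member after every cell was thinned to 2000 UMIs, in percent, with Control in blue, Null in red and lines for the 95% Clopper-Pearson interval. Igfbp5 reaches 85.8% and 85.2% of mesothelial cells, and Igfbpl1 reaches 42.1% and 35.5% of endocrine progenitor cells but 0.805% and 0.0936% of acinar cells.

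Counted by class, mesenchymal cells had the most members called higher in Null and leukocytes the most called lower. In mesenchymal cells 5 of 10 were called higher in Null (Igf1, Igf2, Igf2r, Igfbp5 and Igfbp7) and 1 lower (Igfbpl1, at 5.28 and 1.72 CPM), where 7.34% of 14501 measured genes were called higher and 9.33% lower. The median log2 ratio was 0.55 over the members and 0.01 over all measured genes. The summed mesenchymal marker list of the class was also higher, at 5899.5 CPM in Control and 9547 CPM in Null, with 8 of its 9 genes higher in Null, and its part in these counts was not tested. In mesothelial cells 3 were called higher (Igf2, Igfbp2 and Igfbp3) and 1 lower (Igfbpl1, at 8.77 and 2.35 CPM), against 8.34% and 8.26% of all genes, with medians of 0.18 and -0.01. The 2 low Igfbpl1 values did not hold throughout: the mesenchymal log2 ratio was 1.19 with free RNA subtracted, and the mesothelial one was -0.08 without the doublets of a second call. In acinar cells 1 was called higher (Igf2) and 3 lower (Igfbp4, Igfbp5 and Igfbpl1), against 3.56% and 5.26% of all genes. In ductal or bipotent progenitor cells 1 was called higher (Igfbp7) and 4 lower (Igf1, Igfbp2, Igfbp3 and Igfbpl1), against 5.34% and 3.5% of all genes. Endocrine progenitor cells had none of 9 measured members higher and 1 lower (Igf1), against 3.01% and 3.18% of all genes. The low calls in ductal or bipotent progenitor cells were at levels of at most 20.1 CPM, and the log2 ratio of Igf1 there went from -0.95 to -0.26 with subclusters weighted alike.

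Leukocytes and endocrine cells showed the reverse balance. In leukocytes 1 member was called higher (Igfbp7) and 7 lower, against 7.96% and 16.5% of all genes, with medians of -0.89 and -0.10. In endocrine cells 1 was called higher (Igfbp7, 27.5 and 41.9 CPM) and 5 lower (Igf1, Igf2, Igfbp3, Igfbp4 and Igfbp5), against 7.16% and 13.3% of all genes, with medians of -0.62 and 0.06. The endocrine Igfbp7 ratio of 0.61 (0.47 to 0.75) lay close to the 1.5-fold line and was 0.08 among barcodes of 5000 to 20000 UMIs. With free RNA subtracted, the lower calls were 4 in leukocytes and 3 in endocrine cells. That subtraction moved some ratios toward 0 or past it and others away from it: Igfbp5 went from -0.93 to 0.35 in endocrine cells and from -3.02 to -5.81 in leukocytes, and endocrine Igf1 from -1.70 to -4.28. With subclusters weighted alike the endocrine Igf1 ratio was -0.49, under the fold for a call. An endocrine subcluster of 487 Control and 94 Null cells held Igf1 at 52.2 CPM in Control and 54.8 CPM in Null. The Ins1-led one held 11.7 and 5.28 CPM. The part of this make-up in the class ratio was not tested. The leukocyte log2 ratio of Igf1, -0.61, was -0.18 when taken as a mean over cells. In leukocytes the summed mesenchymal list was 491 CPM in Control and 62.6 CPM in Null, with all 9 of its genes lower in Null. In endocrine cells that list was 249 and 90.6 CPM, again with 9 of 9 genes lower. Another endocrine subcluster, led by Aard and Gm8773 with a median of 22917 UMIs in Control, held 145 Control cells and 9 Null cells.

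**Figure D3:**
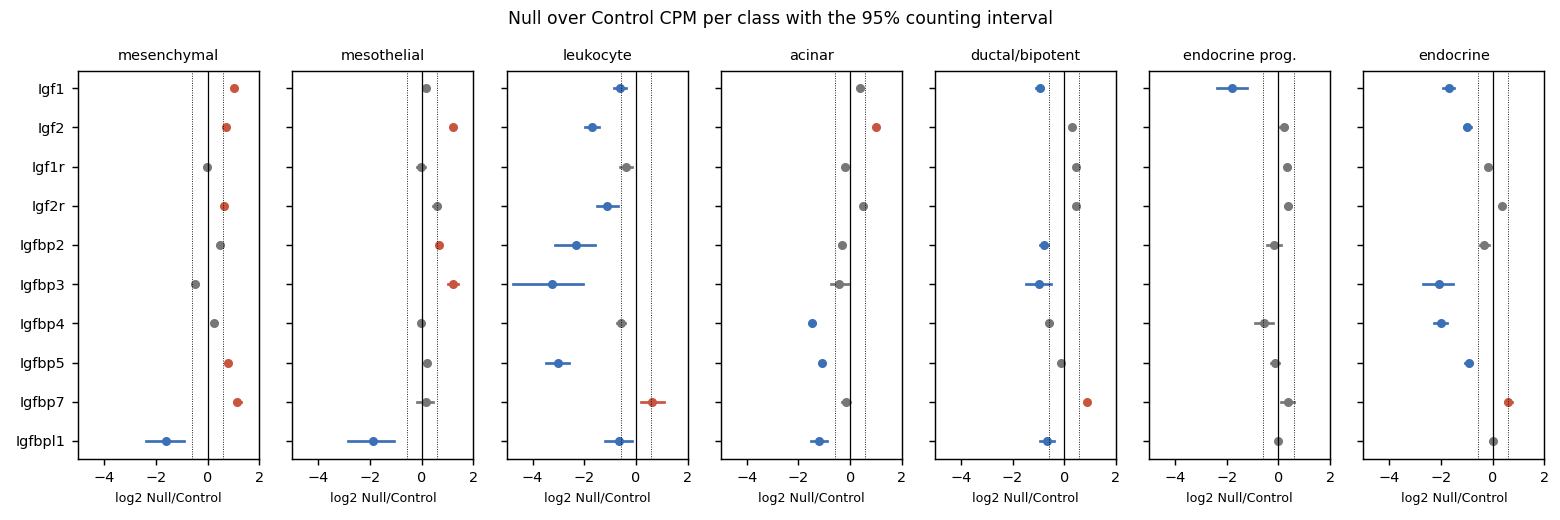
Log2 ratio of Null over Control CPM for each member in the 7 compared classes, with lines for the 95% counting interval, red where called higher, blue where called lower and grey where not called; dotted lines mark 1.5-fold. In mesenchymal cells 5 of 10 members lie above the upper dotted line, and in leukocytes 7 lie below the lower one.

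The mesenchymal and mesothelial classes were not made of the same subclusters in the 2 libraries. Of 2030 Control and 631 Null mesenchymal cells, 1028 and 581 were in the 6 subclusters with at least 20 cells of each library. Igf2 was higher in Null in all 6, by 0.59 to 1.22 on the log2 scale, and Igf2r in all 6, by 0.13 to 1.04, though in the lowest, m2, the interval of -0.50 to 0.69 held 0. Igf1 was higher in 5 of them, by 0.64 to 1.68, and was at 1176 CPM in Control and 1027 CPM in Null in the sixth, m14, led by Fibin and Cxcl13. That subcluster, of 32 Control and 60 Null cells, also had Igfbp5 at 1120 CPM in Control and 329 CPM in Null and Igfbp7 at 260 and 140 CPM. Igfbp5 was higher in Null in 4 of the other 5, by 0.61 to 1.61 on the log2 scale, and was at 88.0 and 87.9 CPM in the fifth, led by Fam162b and Pdgfra. Igfbp7 was higher in Null in 4 of the 6. With the 6 subclusters weighted alike, the mesenchymal log2 ratio was -0.25 for Igfbp5 and 0.07 for Igfbp7, neither of them called, against 0.77 for Igf2 and 0.79 for Igf1. That weighting leaves out the subclusters not shared and gives m14, where both binding proteins had their highest Control level of the 6, the same weight as the larger ones.

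Among the mesothelial cells, 1 subcluster (s7, led by Upk3b and Lrrn4, both mesothelial genes) had at least 20 cells of each library, with 76 Control and 55 Null cells. In it Igf2 was at 421 CPM in Control and 953 CPM in Null, a log2 ratio of 1.18, and Igfbp3 was at 46.3 and 103 CPM. Igfbp2 was at 490 and 615 CPM there, Igf1 at 498 and 383 CPM and Igfbp5 at 1351 and 1226 CPM. The other mesothelial cells were mostly of 1 library in each subcluster, which may be a state or the library itself. A subcluster of 4 Control and 200 Null cells, led by Oprk1 and Prph, was set aside because its leading genes held a neural marker, and it would be 41.2% of the Null mesothelial class if put back.

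**Figure D4:**
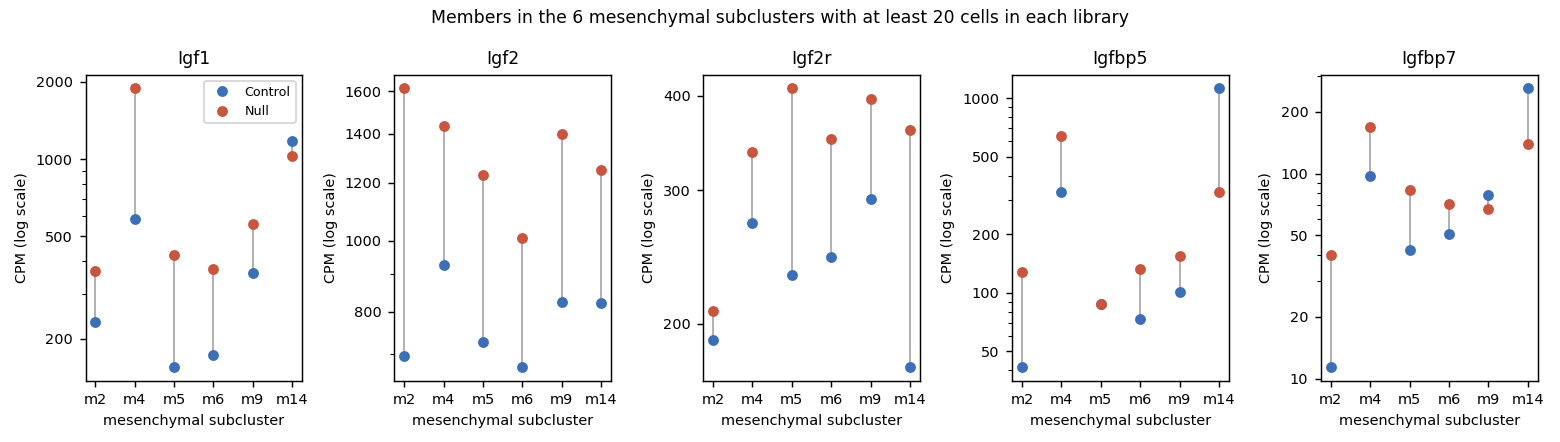
Level of 5 members in the mesenchymal subclusters with at least 20 cells in each library, in CPM on a log axis, with Control in blue and Null in red. Igf2 and Igf2r are higher in Null in all 6 subclusters, and m14 reverses the direction seen for Igf1, Igfbp5 and Igfbp7 in most of the others.

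In acinar cells all 5 subclusters moved alike for Igf2. The highest was led by 2210010C04Rik and Try5, the latter a trypsinogen gene, at 177 CPM in Control and 331 CPM in Null. The log2 ratios ran from 0.59 to 0.90, all below the class ratio of 0.98. That highest subcluster held 434 Control and 810 Null cells, and the part of such a shift in make-up in the class ratio was not tested. Igf1 was also higher in Null in all 5, by 0.20 to 0.50. In the ductal or bipotent progenitor subcluster led by Dcdc2a and Ankrd1, Igfbp7 was at 43.0 CPM in Control and 78.2 CPM in Null, the highest of the class in Null, while another subcluster was higher in Control, at 47.7 and 48.7 CPM. In the Dcdc2a-led subcluster Igfbp5 was at 207 and 162 CPM.

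The rest of the pathway was followed with a list of 33 genes: the insulins, their receptors, other binding proteins, binding-protein proteases and their inhibitors, receptor adaptors, the PI3K and AKT chain, the Igf2 mRNA-binding proteins and H19. In mesenchymal cells 4 of 30 measured were called higher in Null and 5 lower, against 7.34% and 9.33% of all measured genes. The proteases moved in different directions there: Pappa, which cleaves IGFBP4 and IGFBP5, was at 6.76 CPM in Control and 16.1 CPM in Null, and Htra1, a serine protease, was at 97.9 and 36.7 CPM. Pik3r1, a PI3K regulatory subunit, was at 114 and 68.3 CPM. Ins1 and Ins2, which mesenchymal cells do not make, were also called lower there, at 72.1 and 41.8 CPM for Ins1.

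In mesothelial cells 3 of 30 were called higher and 3 lower, against 8.34% and 8.26% of all genes. Pappa was at 54.1 CPM in Control and 28.8 CPM in Null, its related protease Pappa2 was at 4.93 and 18.5 CPM, and the adaptor Irs4 was at 13.96 and 1.27 CPM. In acinar cells 3 of 33 were called higher and 1 lower, against 3.56% and 5.26% of all genes. H19, the imprinted non-coding gene beside Igf2, was at 832 CPM in Control and 1330 CPM in Null acinar cells. In mesenchymal cells H19 was at 1062 and 1551 CPM and was not called. Endocrine cells had 3 of 33 called higher and 5 lower, against 7.16% and 13.3% of all genes. Ins2 was there at 6174 CPM in Control and 17609 CPM in Null. Ductal or bipotent progenitor cells had none higher and 1 lower of 31, against 5.34% and 3.5% of all genes. Endocrine progenitor cells had none of 27 either way, against 3.01% and 3.18%. Leukocytes had none higher and 9 lower of 25, against 7.96% and 16.5%. Insr, the insulin receptor, was not called in any compared class.

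Across the 9 classes, the genes with the profile most like each member were ranked among 9186 genes by Pearson's r of log levels, averaged over the libraries, as a description whose points share library and depth. Igf2 was most like Plagl1, an imprinted zinc-finger gene (mean r of 0.971). Igf2r was most like Kank2 (0.944) and then Airn (0.938), the antisense non-coding gene of the Igf2r locus. Igfbp3 was nearest to Lpar4 (0.972) and to Nid1 (0.962) and Nid2 (0.958), which encode basement membrane nidogens. Igfbp4 was nearest to Phactr2 (0.978), and Igfbpl1 to Spock2 (0.988), Insm1 (0.984) and Lhx1 (0.975), of which Insm1 is an endocrine transcription factor. Igf1 was nearest to Crabp1 (0.895), Igf1r to Adamts16 (0.915), Igfbp2 to Gga2 (0.940), Igfbp5 to Rab33a (0.946) and Igfbp7 to Pea15a (0.893). Between members, r was 0.959 in Control and 0.872 in Null for Igfbp3 with Igfbp4, and -0.44 and -0.48 for Igf1 with Igf1r.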

How the data were processed

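Each library was deposited as a matrix of raw UMI counts per gene and barcode; the authors made these whole-number counts with Cell Ranger 6.1.1, per the file headers, and the submitters' processing notes also name bcl2fastq, Seurat 3.2.3 and mm10. Control held 339959625 UMIs in 30209 barcodes and Null 271129120 in 16708. Barcodes with at least 1000 UMIs, at least 300 genes and under 15% mitochondrial UMIs were kept, and Scrublet doublets were removed: 220 in Control, at a score of 0.25 because no automatic threshold could be found, and 520 in Null. Cells were clustered with scanpy 1.11.5 (2000 variable genes, 30 principal components, Leiden resolution 1) and named from marker lists. Clusters low in UMIs, or led by markers of another class, stayed unnamed by a rule set after the data were seen; they held 52.4% of Control and 21.3% of Null cells, including the set-aside mesothelial (4 and 200), mesenchymal (261 and 8, and 4 and 102) and acinar (887 and 330) subclusters. The members and lists were chosen with earlier results of these data known.

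CPM used the total of the class, leaving out haemoglobin and mitochondrial genes. Levels have exact Poisson intervals, ratios exact conditional binomial intervals and shares Clopper-Pearson intervals, all at 95%. Classes with at least 200 cells in each library were compared. Genes were named by the member list, and from the pathway list those called. With 1 library in each group no p-value was computed. Interval code was tested on simulated data. Free RNA was estimated from acinar enzymes in non-epithelial and matrix genes in epithelial classes. The values of 1 gene of the pathway list are not reported here.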

Additional observations from a re-analysis of the deposited data

Results flagged for a closer look

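In 6 members the call went one way in some classes and the other way in others, and the difference between the classes was not tested. The gap between the highest and the lowest called log2 ratio was 2.79 for Igf1 (mesenchymal over endocrine progenitor cells) and 2.90 for Igf2 (mesothelial cells over leukocytes). It was 1.73 for Igf2r and 3.82 for Igfbp5 (each mesenchymal cells over leukocytes), and 3.00 for Igfbp2 and 4.45 for Igfbp3 (each mesothelial cells over leukocytes). Leukocytes set the low end in 5 of the 6, with free RNA at 32.5% of their UMIs in Control and 8.18% in Null.

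The barcodes left without a class, which enter no comparison, held 6 members at least 1.5-fold higher in Null. The share of all genes called there was not computed, so this count cannot be read as a result about the members. There the log2 ratio was 2.44 for Igfbp5, at 91.6 CPM in Control and 497 CPM in Null, 1.19 for Igf1, 1.01 for Igf2, 0.90 for Igfbp7, 0.74 for Igfbp2 and 0.71 for Igf2r. Igf1r, Igfbp3 and Igfbp4 were higher by less, with log2 ratios of 0.36, 0.27 and 0.40, and Igfbpl1 was at 0.06. These barcodes include the set-aside subcluster of 4 Control and 200 Null cells led by Oprk1 and Prph. They also include a cluster of 10563 Control and 306 Null barcodes, so their make-up differed between the libraries. Its part in these ratios was not tested.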

How the results depend on the processing

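No paired analysis was possible because each group is 1 library and the labels carry no replicate numbers. The limits are those of 2 pooled libraries that differ in genotype, sex, depth and free RNA at once. Counts of members called moved by more than 1.5 times as follows. Calling at 2-fold left 2 higher in mesenchymal, 0 higher in acinar, ductal or bipotent progenitor, endocrine and leukocyte cells, 0 lower in ductal or bipotent progenitor and 3 lower in endocrine cells. Subtracting free RNA gave 3 higher in mesenchymal and 0 higher in endocrine cells, with 2 lower in ductal or bipotent progenitor, 3 in endocrine cells and 4 in leukocytes. Weighting subclusters alike gave 2 higher in mesenchymal, 0 higher in ductal or bipotent progenitor, endocrine and leukocyte cells and 2 lower in endocrine cells. Barcodes of 5000 to 20000 UMIs gave 0 higher in acinar and endocrine, 3 in ductal or bipotent progenitor and 1 in mesothelial cells, with 1 lower in acinar and 2 in endocrine progenitor and mesenchymal cells. Thinning to 2000 UMIs gave 0 higher in endocrine cells and leukocytes, 1 in endocrine progenitor cells, 3 lower in leukocytes and 0 lower in mesothelial cells. Removing doublets of a second call gave 0 higher in endocrine cells, 4 lower in leukocytes, 2 in mesenchymal and 0 in mesothelial cells. The mean over cells gave 0 higher in endocrine and 2 lower in mesenchymal cells, and median-of-ratios scaling 0 higher in endocrine and 2 lower in endocrine progenitor cells. With 50 principal components or a Leiden resolution of 0.5, 2 were lower in endocrine progenitor cells. Called log2 ratios changed sign in 8 cases: Igfbp5 in mesenchymal cells was -0.25 and Igf2 in endocrine cells 0.12 with subclusters weighted alike; with free RNA subtracted Igfbpl1 was 1.19 in mesenchymal cells and 0.25 in leukocytes, and Igf2 was 0.0410 and Igfbp5 0.35 in endocrine cells; among barcodes of 5000 to 20000 UMIs Igfbp4 was 0.00406 in acinar and Igfbp5 0.0687 in endocrine cells. Beyond what the construction of each alternative shows, the cause was not tested. Putting the set-aside subclusters back, an alternative chosen after the data were seen, changed no sign of a called ratio. Under all 13 alternatives, Igf2 in mesothelial cells (log2 ratio 1.04 to 1.40) and Igf1 in mesenchymal cells (0.79 to 1.29) stayed at least 1.5-fold higher in Null. Igf2 in mesenchymal cells (0.52 to 0.89) did so under 12 of 13. Other ratios stayed at least 1.5-fold lower in Null under all 13. They were Igf2, Igfbp2, Igfbp3 and Igfbp5 in leukocytes, and Igfbp3 and Igfbp4 in endocrine cells. Igf1 in endocrine progenitor, Igfbp5 in acinar and Igfbp3 in ductal or bipotent progenitor cells did so too. The Igfbp3 ratios among these rest on low levels. In ductal or bipotent progenitor cells it was at 1.76 CPM in Control and 0.885 CPM in Null (122 and 49 UMIs). In leukocytes it was at 11.0 and 1.16 CPM (66 and 6 UMIs), and in endocrine cells at 6.86 and 1.61 CPM (205 and 31 UMIs).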

Other observations

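The mural cells were too few to compare, with 112 in Control and 41 in Null. Igf2 was at 601 CPM in Control (95% Poisson interval 562 to 643) and 1215 CPM in Null (1141 to 1292). Igf2r was at 233 and 412 CPM, and Igfbp7, which is known from vessel walls, at 89.7 and 187 CPM. Neural cells, 164 in Control and 150 in Null, held Igf1r at 98.4 and 141 CPM and Igfbp3 at 12.2 CPM (7.62 to 18.4) and 39.3 CPM (30.4 to 49.9). Their share of free RNA was 46.7% in Control and 25.4% in Null, and its part in these values was not tested.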
